A study of Mus musculus with 20 samples.

Results

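Transcripts of 10 interferon-gamma (IFN-γ) inducible GTPase genes were examined in the cecum of 20 C57BL/6 mice. The genes were 6 guanylate-binding proteins (Gbp2, Gbp3, Gbp4, Gbp6, Gbp7, and Gbp8), 3 immunity-related GTPases (Igtp, Irgm1, and Irgm2), and the giant GTPase Gvin1. They were taken by name, as the rows whose Ensembl identifiers carry these symbols in GENCODE release 39, and they are 10 of the 19887 genes in the table. The rule uses names only, but the genes were proposed with earlier results of these data known. All mice were first kept for 6 weeks, from 3 weeks of age, on the TWD (Total Western Diet, built to match typical American nutrient intakes). For 3 more weeks they were fed the TWD alone (0% RPS) or the TWD with raw potato starch (RPS) at 2, 5, or 10%. There were 5 mice on each of the 4 diets, numbered here from 1 to 5 within a diet, and the labels name no transgene or deletion.

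IFN-γ is made mainly by T cells, natural killer cells, and innate lymphoid cells. It binds a receptor of the IFNGR1 and IFNGR2 chains, and through the kinases JAK1 and JAK2 the signal reaches GAS elements in the DNA. The signal also raises IRF1, which acts on interferon-stimulated response elements (ISRE), and the GBP and IRG genes are among the most inducible targets of this pathway. GBP proteins assemble on vacuoles and on the surface of bacteria in the cytosol and open the way to the inflammatory caspases. The IRG proteins Irgm1, Irgm2, and Igtp sit on the cell's own membranes and restrain the effector IRG proteins, and Irgm1 is also known for its role in autophagy. Gvin1 encodes a very large GTPase whose function is little known.

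The GBP genes lie in a pair of clusters in the mouse genome (GRCm39). Gbp7 (ENSMUSG00000040253, chr3:142236044-142255910), Gbp3 (ENSMUSG00000028268, chr3:142265731-142278979), and Gbp2 (ENSMUSG00000028270, chr3:142326349-142343779) are on the plus strand of chromosome 3. Gbp8 (ENSMUSG00000034438, chr5:105162016-105287452), Gbp4 (ENSMUSG00000079363, chr5:105263633-105287609), and Gbp6 (ENSMUSG00000104713, chr5:105418568-105443751) are on the minus strand of chromosome 5. Igtp (ENSMUSG00000078853, chr11:58089840-58098417) and Irgm2 (ENSMUSG00000069874, chr11:58090444-58113615) overlap on the plus strand of chromosome 11. Irgm1 (ENSMUSG00000046879, chr11:48752795-48763164) is on the minus strand of the same chromosome, and Gvin1 (ENSMUSG00000045868, chr7:105755763-105814533) is on the minus strand of chromosome 7. All 10 are annotated as protein-coding.

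The 250 bases upstream of the canonical start of each gene were searched on both strands for ISRE letters (GAAA, any 2 bases, and GAAA again) and GAS letters (TTC and GAA with any 3 bases between them). ISRE letters were found in 2 of the 10 members (Irgm1 and Irgm2), GAS letters in 2 (Gbp7 and Irgm2), and either in 3. Over the 17681 protein-coding genes in the table, windows of the same length held ISRE letters in 3.16%, GAS letters in 6.97%, and either in 9.77%. The windows of Gbp7 and Gvin1 are shown because these genes had the lowest p-values with 10% RPS among the members, and they read 5′ to 3′ on the strand of the gene. The Gbp7 window is chr3:142235794-142236043 on the plus strand and the Gvin1 window chr7:105814534-105814783 on the minus strand (GRCm39). Capitals mark GAS letters, which begin 53 and 34 bases upstream of the Gbp7 start, and no capitals stand in the Gvin1 window.
Gbp7: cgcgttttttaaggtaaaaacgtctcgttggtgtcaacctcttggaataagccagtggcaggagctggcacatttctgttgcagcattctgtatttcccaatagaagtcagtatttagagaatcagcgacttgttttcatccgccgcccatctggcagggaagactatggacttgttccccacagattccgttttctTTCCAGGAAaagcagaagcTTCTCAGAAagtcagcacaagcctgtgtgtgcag
Gvin1: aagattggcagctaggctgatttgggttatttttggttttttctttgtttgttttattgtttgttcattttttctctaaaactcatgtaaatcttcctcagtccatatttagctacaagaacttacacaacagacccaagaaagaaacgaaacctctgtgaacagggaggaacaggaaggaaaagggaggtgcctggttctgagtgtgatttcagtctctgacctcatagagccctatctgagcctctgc

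For Irgm1 and Irgm2 only 30 bases around the matched letters are shown, since these windows run into untranslated exons on the strand of the gene (of other Irgm1 transcripts and of Igtp). Exons on the opposite strand also overlap the Irgm1 window (Gm74350) and the Gbp7 window shown above (Gm66604). The windows of Gbp3, Gbp4, Gbp6, Gbp8, and Igtp, which are not shown, overlap annotated exons of the same gene, so not all windows searched lie outside transcribed sequence. The stretches shown are chr11:48762255-48762284 on the minus strand (Irgm1) and chr11:58090333-58090362 on the plus strand (Irgm2). Capitals mark a pair of overlapping ISRE matches in Irgm1, beginning 30 and 24 bases upstream of the start, and a GAS match followed by an ISRE match in Irgm2, beginning 107 and 96 bases upstream.
Irgm1: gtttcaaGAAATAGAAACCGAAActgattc
Irgm2: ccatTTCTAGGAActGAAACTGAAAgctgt

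A match of letters does not show that a factor binds there, and the lack of a match says only that these letters are not in the window.

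Messenger RNA was measured by stranded RNASeq with single-end reads of 50 bases. Total counts were between 14967798 and 42687283 per mouse, and 3 counts, the smallest level taken as measurable, were worth 0.0698 to 0.19 CPM (the count of a gene relative to the library total, scaled by TMM) depending on the mouse. These limits cover counting error only, because the reads carry no molecular identifiers. Of the 19887 genes, 15348 had enough counts to be tested, 9 of the 10 members among them. The tissue carried its epithelial markers in all mice, with at least 10600 CPM in sum.

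Members were far apart in level. Irgm1 had 38.0 ± 6.30 CPM (SD, n = 20), Irgm2 21.3 ± 4.71, and Gbp2 12.7 ± 3.02. Gbp7 followed with 9.26 ± 1.87, Gbp3 with 8.18 ± 1.69, and Gbp8 with 7.25 ± 2.53. Gvin1 (1.67 ± 0.879), Gbp4 (0.435 ± 0.261), and Igtp (0.405 ± 0.211) were low, with 7 to 124, 2 to 31, and 1 to 25 counts per mouse. Gbp6 had 3 counts in all 20 mice together, 0 in 17 of them, and was not tested. The 10 members summed to 67.1 to 127 CPM per mouse, and Irgm1 made up 34.5 to 46.4% of this sum.

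Per kilobase of exon the order was Irgm1 (5.99 ± 0.991 CPM per kb), Irgm2 (5.69 ± 1.26), Gbp2 (4.96 ± 1.18), Gbp3 (1.92 ± 0.397), Gbp8 (1.61 ± 0.560), and Gbp7 (1.55 ± 0.312). Gvin1 (0.186 ± 0.0976), Igtp (0.0889 ± 0.0464), and Gbp4 (0.0449 ± 0.0269) came after them. The step from Gbp2 to Gbp3 and that from Gbp7 to Gvin1 had the same direction in 20 of 20 mice. Irgm1 was above Irgm2 in 12 of 20 mice and Gbp8 above Gbp7 in 8 of 20, so these neighbors were not separated beyond their spread. The remaining steps down to Gbp4 held in 16 of 20 mice each.

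Some of these counts cannot be told apart by sequence. Of the 50-base windows in annotated Gvin1 transcripts, 99.2% also occur in another gene, 98.3% in Gvin2, which had 84 counts in all mice against 1004 for Gvin1. For Gbp6, 61.6% of windows are shared, mainly with Gm43302 and Gbp10. The share was 14.5% for Gbp8, 11.5% for Gbp7 (mostly with the pseudogene Gm43802, which is not a row of the table), 8.79% for Irgm2, and 7.45% for Igtp. It was 6.75% for Gbp4, 2.68% for Gbp3, 1.80% for Gbp2, and 0.271% for Irgm1. How the authors assigned reads that match several genes is not given in the sources used here. Gvin1 is therefore best read as Gvin1 and Gvin2 together, and Gbp6 as unresolved.

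**Figure D1:**
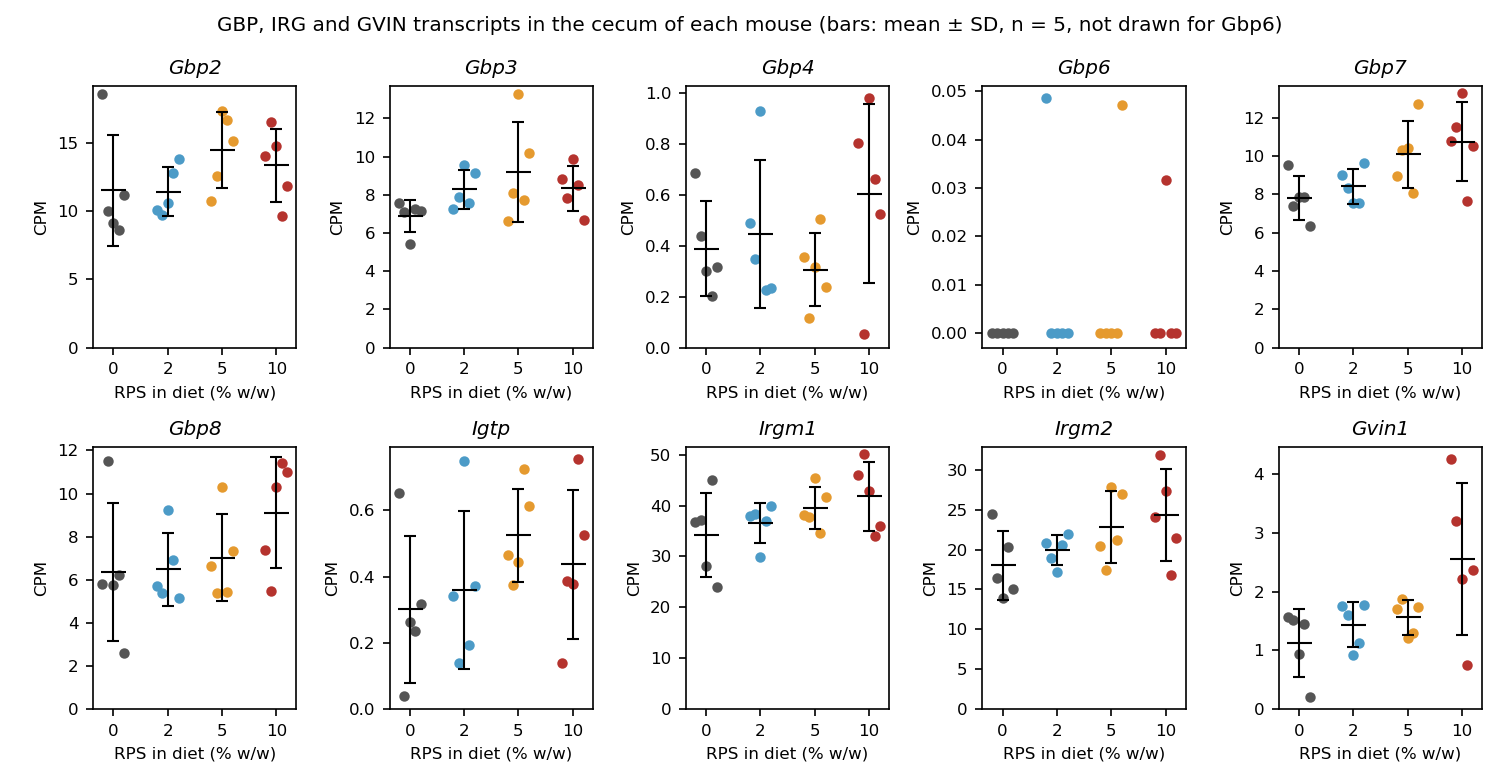
Level of each member in the cecum (CPM) in each of 20 mice against the RPS content of the diet (% w/w), with 1 point per mouse and bars at mean ± SD of 5 mice. The 4 highest Gvin1 values, from 2.21 to 4.25 CPM, are all in mice fed 10% RPS, and no member separates any RPS diet fully from 0% RPS.

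The comparison with 0% RPS asked whether starch in the diet altered these transcripts. In mice fed 10% RPS the estimate of every tested member was above that with 0% RPS, from 0.22 (Gbp2) to 1.19 (Gvin1) on the log2 scale. None of the 9 passed the threshold (edgeR's quasi-likelihood test, a Benjamini-Hochberg p no higher than 0.05, and at least a 1.5-fold change), against a background of 1.04% of all tested genes. By DESeq2's Wald test with the same thresholds the count was also 0. The paper that reported these data, using DESeq2 and these thresholds, listed Irgm2 and Gvin1 as higher in the cecum with 10% RPS. Its figures give more mice per diet than the 5 used here, and the cause of the difference was not tested. At an unadjusted p under 0.05 by edgeR, 3 of the 9 were higher (Gbp7, Irgm2, and Gvin1) and 0 lower, where 9.74% of all tested genes were higher and 9.75% lower. The median log2 difference over the 9 was 0.47, and over all tested genes it was 0.004. An estimate above 0 was found for 50.9% of all tested genes. The 5 values with 10% RPS and the 5 with 0% RPS overlapped for all 9 members, and they did not overlap for 4.88% of all tested genes.

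Gvin1, the giant GTPase, had the largest difference. Its values were 1.56, 1.51, 0.938, 1.44, and 0.201 CPM in mice 1 to 5 fed 0% RPS and 1.75, 1.60, 0.929, 1.13, and 1.77 in those fed 2%. They were 1.70, 1.87, 1.21, 1.29, and 1.74 CPM with 5% and 4.25, 3.20, 2.21, 0.754, and 2.36 with 10%. In 4 of 5 mice fed 10% RPS Gvin1 was higher than in every mouse on the other 3 diets, and mouse 4 lay below 4 of the 5 mice fed 0% RPS. Means were 1.13 ± 0.577 CPM with 0% and 2.56 ± 1.29 with 10% RPS (SD, n = 5). The log2 fold change was 1.19 (SE 0.41, 95% interval 0.34 to 2.04), with an adjusted p of 0.121 by edgeR. Without mouse 4 of the 10% group it was 1.43 with an adjusted p of 0.0391, which is past the threshold. Without mouse 5 of the 0% group, whose 7 counts were the fewest, it was 0.93 with an adjusted p of 0.169. Summing Gvin1 with its near copy Gvin2 gave 1.13 and an adjusted p of 0.0982.

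Gbp7, a chromosome 3 GBP known for its part in the oxidative response of macrophages, had the smallest p among the members. It was measured at 9.54, 7.37, 7.84, 7.86, and 6.34 CPM in the mice fed 0% RPS and at 9.0, 8.35, 7.55, 7.56, and 9.61 in those fed 2%. With 5% RPS the values were 8.93, 10.3, 10.4, 8.09, and 12.7 CPM, and with 10% RPS they were 10.8, 11.5, 13.3, 7.63, and 10.5. In 4 of 5 mice fed 10% RPS and in 3 of 5 fed 5% RPS, Gbp7 was above all mice fed 0% RPS. The log2 fold change with 10% RPS was 0.47 (SE 0.15, 95% interval 0.16 to 0.77), with an adjusted p of 0.0934 by edgeR. DESeq2's Wald test gave an adjusted p of 0.0362 for the same change, which is a 1.38-fold difference and below the fold threshold. Without mouse 4 of the 10% group the edgeR value was 0.57 with an adjusted p of 0.0283, still short of 1.5-fold.

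Irgm2, a regulatory IRG of the Golgi, was 24.5, 16.5, 13.9, 20.3, and 15.1 CPM with 0% RPS and 20.8, 19.0, 17.2, 20.6, and 22 with 2%. The values with 5% RPS were 20.5, 17.4, 27.9, 21.2, and 27.0 CPM, and those with 10% RPS were 24.1, 31.9, 27.4, 16.8, and 21.5. The groups overlapped widely, and 2 of 5 mice fed 10% RPS were above the highest mouse fed 0%. The log2 fold change was 0.43 (SE 0.17, 95% interval 0.08 to 0.79), adjusted p = 0.17 by edgeR.

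Irgm1, the most abundant member, was 36.7, 37.2, 28.2, 45.1, and 23.9 CPM in mice fed 0% RPS. It was 46.1, 50.1, 42.8, 34.1, and 36.0 CPM in mice fed 10% RPS, between 29.9 and 40.0 with 2%, and between 34.7 and 45.5 with 5%. The log2 fold change with 10% RPS was 0.29 (SE 0.14, 95% interval -0.01 to 0.59) with an edgeR adjusted p of 0.265. Igtp, also called Irgm3, had 1 to 20 counts in mice fed 0% RPS and 4 to 16 in mice fed 10%. Its log2 fold change of 0.48 had a 95% interval of -0.58 to 1.54, and it was 0.22 without mouse 2 and 0.96 without mouse 1 of the 0% group, so no direction could be read.

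Gbp8 was 5.79, 11.5, 5.74, 6.21, and 2.58 CPM with 0% RPS and 7.39, 5.47, 10.3, 11.4, and 11 with 10%. Mice 2 and 5 of the 0% group held the highest and the lowest Gbp8 of all 20 mice, and the groups overlapped. The log2 fold change was 0.52 (SE 0.30, 95% interval -0.10 to 1.14), adjusted p = 0.338 by edgeR, and it was 0.85 without mouse 2 and 0.33 without mouse 5 of the 0% group. Gbp2, which is recruited early to vacuoles of intracellular pathogens, averaged 11.5 ± 4.08 CPM with 0% RPS and 13.4 ± 2.69 with 10% (SD, n = 5). Mouse 1 of the 0% group had 18.6 CPM, the highest Gbp2 of all mice, and the log2 fold change of 0.22 (95% interval -0.19 to 0.62) became 0.46 without it, with an edgeR adjusted p of 0.167, and 0.13 without mouse 4 of that group. Gbp3 averaged 6.89 ± 0.849 CPM with 0% and 8.34 ± 1.18 with 10% RPS, a log2 fold change of 0.28 (95% interval -0.06 to 0.61). Gbp4 ranged from 0.201 to 0.684 CPM with 0% and from 0.0516 to 0.980 with 10% RPS, and its log2 fold change of 0.62 had a 95% interval of -0.50 to 1.74 and was 0.93 without mouse 1 of the 0% group and 0.36 without mouse 3 of the 10% group.

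With 5% RPS, 0 of 9 members passed the threshold by either edgeR or DESeq2 (background 0.195%). At an unadjusted p under 0.05 by edgeR, 2 were higher (Gbp3 and Gbp7), where 6.74% of all tested genes were. Gbp3 was 7.55, 7.09, 5.40, 7.25, and 7.14 CPM with 0% RPS and 6.63, 8.09, 13.3, 7.74, and 10.2 with 5%. In 4 of 5 mice fed 5% RPS Gbp3 was above all mice fed 0%, and mouse 1 was below 4 of them. The log2 fold change was 0.41 (SE 0.16, 95% interval 0.07 to 0.75), adjusted p = 0.262 by edgeR. It was 0.24 without mouse 3 of the 5% group. For Gbp7 the log2 fold change was 0.37 (SE 0.15, 95% interval 0.06 to 0.68), adjusted p = 0.26 by edgeR. Estimates for 8 of the 9 members were above 0 (49.5% of all tested genes were), with Igtp the largest at 0.77 (95% interval -0.28 to 1.82), and Gbp4 was at -0.34 (95% interval -1.52 to 0.85). The groups overlapped for all 9, and they did not for 3.57% of all tested genes.

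With 2% RPS, 0 of 9 members passed the threshold by edgeR or DESeq2 (background 0%), and 0 had an unadjusted p under 0.05, where 5.77% of all tested genes had. The groups overlapped for all 9 (1.09% of all tested genes did not overlap), and 8 of 9 estimates were above 0 (51% of all tested genes). The log2 fold changes lay between -0.02 (Gbp2) and 0.35 (Gvin1), with a median of 0.14. Their 95% intervals allowed differences of up to 0.42 for Gbp7, 0.39 for Irgm1, 0.50 for Irgm2, and 1.20 for Gvin1. Between 10 and 5% RPS again 0 of 9 passed (background 0%) and 0 had an unadjusted p under 0.05 by edgeR (2.79% of all tested genes). Of the estimates 6 of 9 were above 0 (50.3% of all tested genes), and they ran from -0.29 (Igtp) to 0.95 (Gbp4). The comparisons with 0% RPS share the same 5 control mice, so their estimates are not independent of each other.

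**Figure D2:**
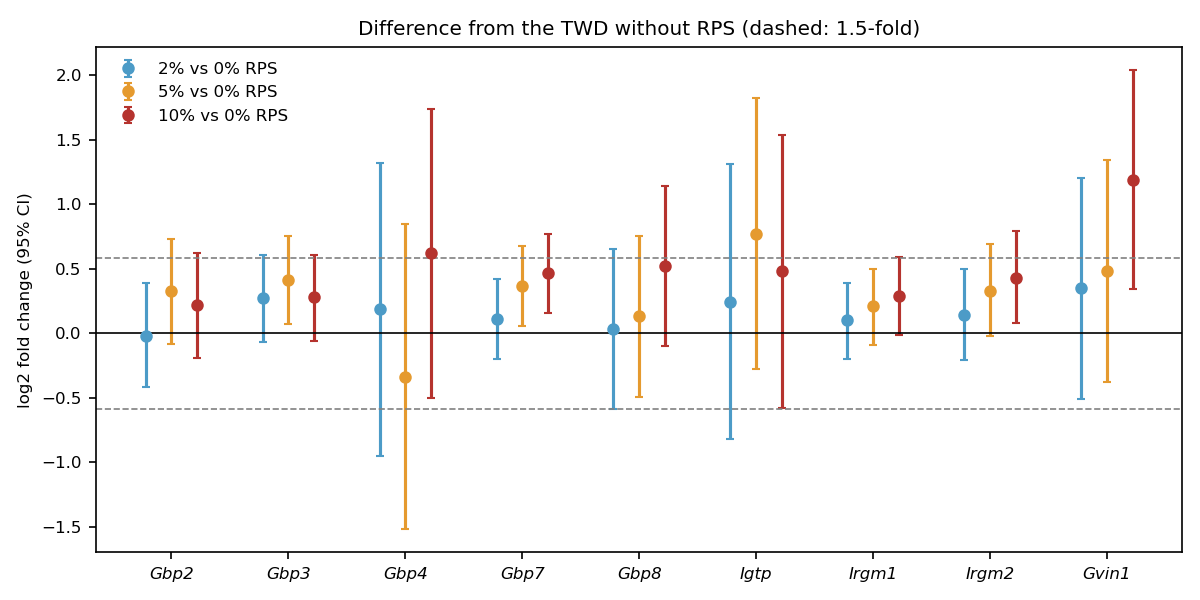
Log2 fold change of the 9 tested members with 2, 5, and 10% RPS against 0% RPS, with 95% intervals from the edgeR fit of 20 mice and dashed lines at 1.5-fold. The intervals with 10% RPS lie above 0 for Gbp7, Irgm2, and Gvin1, and those of Gbp4 and Igtp, which had few counts, are the widest.

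Slopes against RPS content were fitted to all 20 mice. All 9 slopes were above 0 (50.5% of all tested genes were), and 0 of 9 passed an adjusted p of 0.05 (background 1.11%). At an unadjusted p under 0.05 by edgeR, 4 of 9 slopes were positive (Gbp7, Gvin1, Irgm2, and Irgm1), where 9.37% of all tested genes were. The slope of Gbp7 was 0.0479 log2 units per percent of RPS (SE 0.0135, adjusted p = 0.0736 by edgeR). That of Gvin1 was 0.113 (SE 0.0353, adjusted p = 0.0982), that of Irgm2 0.0426 (SE 0.0155, adjusted p = 0.147), and that of Irgm1 0.0283 (SE 0.0128, adjusted p = 0.236). With the rank of the dose in place of the percentage, Gbp7 passed with an adjusted p of 0.0408. Without mouse 4 of the 10% group 3 members passed (Gbp7 at 0.0145, Gvin1 at 0.027, and Irgm2 at 0.0442), and without mouse 3 of the 2% group Gbp7 passed at 0.0491. With each mouse left out the adjusted p of the slope reached 0.218 for Gbp7 and 0.304 for Irgm2 (both without mouse 3 of the 10% group) and 0.29 for Gvin1 (without mouse 1 of that group). With the smooth muscle mean as a covariate it was 0.264 for Gbp7, 0.491 for Irgm2, and 0.197 for Gvin1. A test for any difference among the 4 diets called 0 of 9 members by edgeR (background 0.0912%), with Gbp7 and Gvin1 at an unadjusted p under 0.05 (adjusted p = 0.287 and 0.426), where 11.1% of all tested genes were.

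Single mice moved several members at once. Mouse 5 of the 0% group held the lowest value of all 20 mice for 4 of the 9 tested members (Gbp7, Gbp8, Irgm1, and Gvin1). All 9 lowest values were in mice fed 0% RPS, except that of Gbp4, which was in mouse 2 of the 10% group. Mouse 4 of the 10% group was the lowest of its group for Gbp2, Gbp7, Irgm1, Irgm2, and Gvin1 and the highest of all mice for Igtp.

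Among the members 6 (Gbp2, Gbp3, Gbp7, Irgm1, Irgm2, and Gvin1) were linked by correlations across mice, and Gbp4, Gbp8, and Igtp were in no pair that passed. Of 36 pairs, 9 had a Pearson r with an adjusted permutation p of at most 0.05 (log2 CPM, two-sided, 100000 permutations), and all 9 were positive. These 9 pairs, 25% of the 36, had r of 0.56 or more, which 5.62% of all pairs of tested genes reached. Irgm1 correlated with Irgm2 (r = 0.81, rho = 0.71, adjusted p = 0.00048) and with Gvin1 (r = 0.81, rho = 0.66, adjusted p = 0.00048) in this permutation test. Gbp7 correlated with Irgm2 (r = 0.80, rho = 0.84), Gvin1 (r = 0.74, rho = 0.82), Irgm1 (r = 0.70, rho = 0.70), and Gbp2 (r = 0.60, rho = 0.60), with adjusted permutation p-values of 0.00048, 0.000864, 0.00324, and 0.0258. Gbp2 correlated with Irgm2 (r = 0.76, rho = 0.81, adjusted permutation p = 0.000864). The other 2 pairs were Irgm2 with Gvin1 (r = 0.64) and with Gbp3 (r = 0.56). Within diets, after each diet's mean was removed, 5 of the 36 pairs kept an adjusted permutation p of at most 0.05. They were Irgm1 with Irgm2 (r = 0.74) and Gvin1 (r = 0.77), Gbp7 with Irgm2 (r = 0.71) and Gvin1 (r = 0.66), and Gbp2 with Irgm2 (r = 0.73). An r of 0.66 or more within diets was found for 13.9% of the members' pairs and 3.59% of all pairs. Both cuts, 0.56 and 0.66, are the lowest r among the members' own pairs that passed, so they were set by the members. These shares are a description with no test, since genes are not independent replicates.

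Leaving out the 2 mice farthest from the median of the first gene kept r at 0.74 for Irgm1 with Irgm2, 0.65 for Irgm1 with Gvin1, 0.76 for Gbp7 with Irgm2, 0.82 for Gbp7 with Gvin1, 0.73 for Gbp2 with Irgm2, 0.73 for Gbp7 with Irgm1, 0.63 for Gbp2 with Gbp7, and 0.58 for Irgm2 with Gvin1. For Gbp3 with Irgm2, the only pair of Gbp3 that passed, r fell to 0.32, so this relation rests on those mice. Irgm2 and Igtp, which share exonic sequence, had r = 0.22. The r of Gbp4 with Gbp8, which also share exonic sequence, was 0.44 (adjusted permutation p = 0.153).

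Ifng itself had 18 counts in all mice together and 0 in 10 of them, so its relation to the members was not computed.

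Ranked over 15339 other tested genes by r with the mean standardized log2 CPM of the 9 members, after removal of diet means, the 10 most similar were Glipr2 (r = 0.85), Trim21 (0.81), Cemip (0.81), Zbp1 (0.80), Col6a3 (0.79), Pcdh12 (0.79), Cdk2ap1 (0.77), Klhl5 (0.77), Rnf125 (0.76), and Herc6 (0.76). This likeness is over 20 mice that share their libraries' scaling with the members, and it is a description with no test. Trim21 and Zbp1, both known as interferon-induced genes, stood in the list of IFN-γ targets, and the other 8 genes stood in none of the lists. Irf1 came at rank 861 (r = 0.45), Jak1 at 979 (0.43), Ciita at 2562 (0.30), and Jak2 at 4160 (0.20). Both receptor chains had negative r, with Ifngr1 at rank 9586 (-0.10) and Ifngr2 at 11562 (-0.22).

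**Figure D3:**
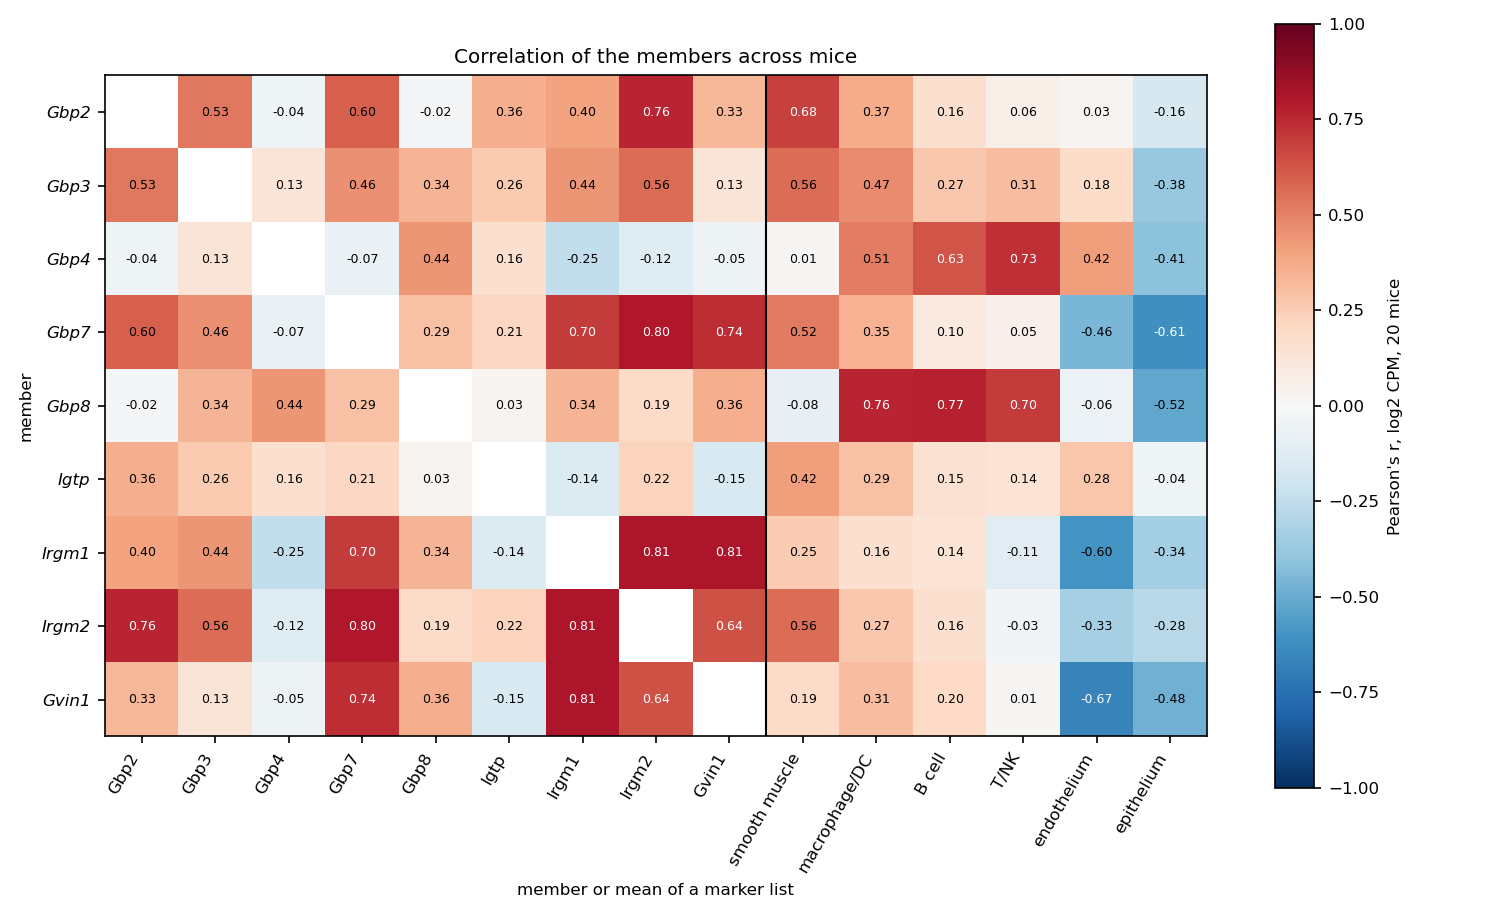
Pearson r across 20 mice (log2 CPM) of each tested member with the other members and with the mean of each list of cell type markers. Gbp7, Irgm1, Irgm2, and Gvin1 form a block with r of 0.64 to 0.81, and Gbp4 and Gbp8 are instead highest with the T/NK, B cell, and macrophage/dendritic cell markers.

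Levels of cell type markers were compared with diet and with the members. In bulk tissue, fewer cells of a type and less RNA per cell cannot be told apart. The 6 smooth muscle markers (Acta2, Myh11, Des, Actg2, Cnn1, and Tagln) summed to 2440 to 5670 CPM with 0% RPS, 3240 to 5660 with 2%, 4150 to 9680 with 5%, and 3990 to 6690 with 10%. All 6 had estimates above 0 with 10% RPS, and Actg2 passed the threshold (log2 fold change 1.28, SE 0.30, adjusted p = 0.0358 by edgeR). With 5% RPS the median of the list was higher (0.91, against 0.69 with 10%), all 6 had an unadjusted p under 0.05, and Actg2 passed (1.53, SE 0.30, adjusted p = 0.0425 by edgeR). With 10% RPS no muscle marker passed without mouse 3, 4, or 5 of the 0% group or mouse 1, 2, 3, or 5 of the 10% group, nor with the B cell, smooth muscle, or macrophage and dendritic cell mean as a covariate, and 2 passed without mouse 4 of the 10% group or by DESeq2's Wald test. The 7 B cell markers summed to 5.31 to 221 CPM with 0%, 3.34 to 331 with 2%, 7.72 to 142 with 5%, and 15.2 to 307 with 10% RPS, with medians of 20.6, 10.2, 76.2, and 247. All 7 estimates were above 0 with 10% RPS (median 2.03), but 0 passed by edgeR and 0 had an unadjusted p under 0.05. The 12 macrophage and dendritic cell markers had medians of 149, 177, 222, and 329 CPM in sum (range 137 to 367), and all 12 estimates were above 0 with 10% RPS, 4 with an unadjusted p under 0.05. None passed the threshold by edgeR or DESeq2, and 3 did by edgeR without mouse 2 of the 0% group. The 12 T and NK cell markers summed to 16.1 to 64.1 CPM, with medians of 24.5, 23.6, 26.2, and 37.6 and 7 of 12 estimates above 0 with 10% RPS. Other lists were mostly lower with 10% RPS, and none of their genes passed the threshold by edgeR (1 neutrophil marker did by DESeq2). The 10 epithelial markers had medians of 14000, 13200, 12400, and 11700 CPM in sum (range 10600 to 16500), with 9 of 10 estimates below 0 (3 with an unadjusted p under 0.05) and Muc2 the lowest (-0.59, SE 0.23). The 7 endothelial markers had medians of 171, 177, 178, and 158 CPM (range 132 to 229), with 6 of 7 estimates below 0 and 4 at an unadjusted p under 0.05. The 5 neutrophil markers summed to 0.788 to 17 CPM with 0%, 0.163 to 6.18 with 2%, 0.19 to 0.471 with 5%, and 0.453 to 1.88 with 10% RPS. Only Ly6g of these was tested, with -4.91 (SE 1.02, adjusted p = 0.051) with 5% and -2.74 (SE 0.86, adjusted p = 0.0969) with 10% RPS by edgeR. The highest sum was mostly Ly6g, with 16.3 of the 17 CPM in mouse 1 fed 0% RPS. S100a8, S100a9, Mpo, and Camp had 34, 62, 10, and 23 counts in all mice together, so the sums describe Ly6g rather than neutrophil markers in general. No marker of any of these lists was at 0 in all mice.

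Gbp8 followed the immune cell markers, with r of 0.77 for B cells (rho = 0.81), 0.76 for macrophages and dendritic cells (rho = 0.70), and 0.70 for T and NK cells (rho = 0.77), at adjusted permutation p-values of 0.00243, 0.00243, and 0.00769 over 54 relations. Within diets these r were 0.72, 0.71, and 0.68, each with an adjusted permutation p of 0.0243. Gbp4 followed T and NK cell markers (r = 0.73, adjusted permutation p = 0.00324) and B cell markers (r = 0.63, adjusted permutation p = 0.0235). Within diets Gbp4 passed with these lists (r = 0.76 and 0.67, adjusted permutation p = 0.0344 and 0.0364) and also with macrophage and dendritic cell markers (r = 0.60, adjusted permutation p = 0.0369) and endothelial markers (r = 0.64, adjusted permutation p = 0.0364). The last of these had r = 0.42 over all mice, and 0.06 without the 2 mice farthest from its median. Without the 2 mice farthest from the median of the marker mean, r was 0.77, 0.80, and 0.66 for Gbp8 in the same order and 0.72 and 0.63 for Gbp4. Gbp2 and Gbp3 followed smooth muscle markers (r = 0.68 and 0.56, adjusted permutation p = 0.0109 and 0.0477), with r of 0.59 and 0.37 within diets, where neither passed. Gvin1 and Irgm1 were inversely related to endothelial markers (r = -0.67 and -0.60, adjusted permutation p = 0.0106 and 0.0287) and Gbp7 to epithelial markers (r = -0.61, adjusted permutation p = 0.0279). After diet means were removed these r were -0.59, -0.54, and -0.42, and none passed.

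**Figure D4:**
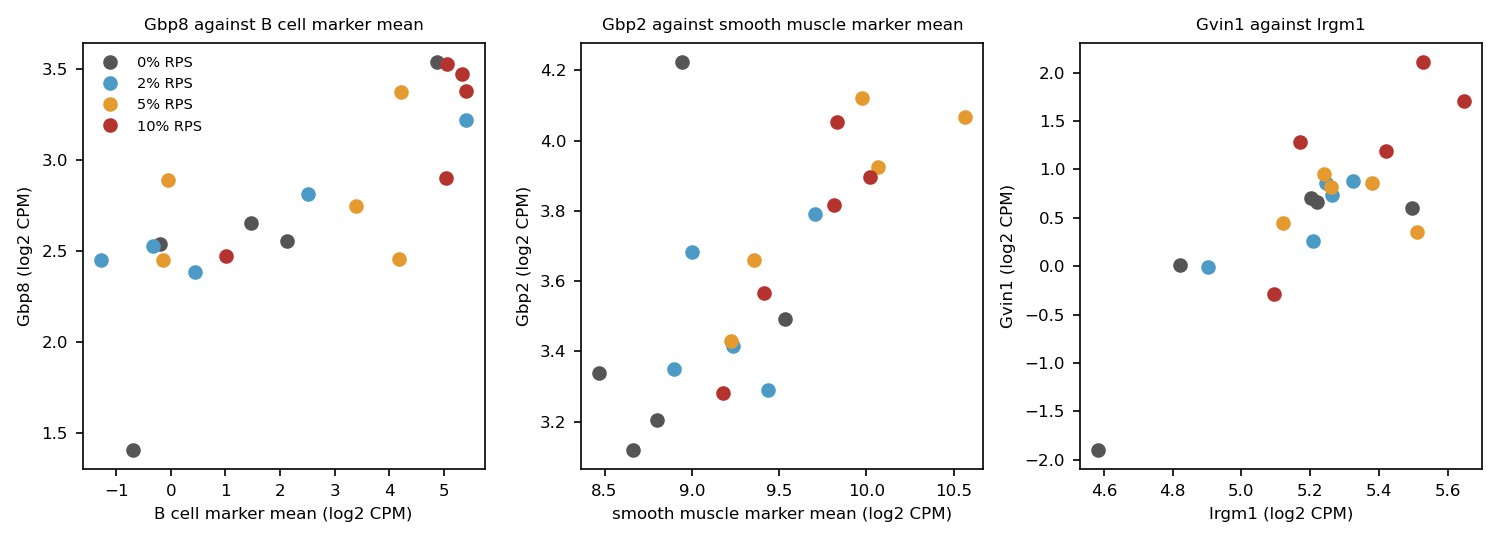
Log2 CPM of Gbp8 against the mean of the B cell markers, of Gbp2 against the mean of the smooth muscle markers, and of Gvin1 against Irgm1, with 1 point per mouse colored by RPS content. The r over 20 mice are 0.77, 0.68, and 0.81, and mouse 5 of the 0% group has the lowest Gbp8 and the lowest Gvin1.

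Estimates with 10% RPS were computed again with the mean of a marker list as a covariate, an analysis chosen after the data had been seen. With the smooth muscle mean, Gvin1 was at 1.41 (adjusted p = 0.215), Gbp7 at 0.38 (adjusted p = 0.285), Irgm2 at 0.23 (adjusted p = 0.554), and Gbp2 at -0.15 by edgeR. With the macrophage and dendritic cell mean, Gvin1 was at 1.24, Gbp7 at 0.47, Irgm2 at 0.46, Gbp4 at -0.30, and Gbp8 at 0.01. With the B cell mean, Gvin1 was at 1.27, Gbp7 at 0.55, Irgm2 at 0.47, Gbp4 at -0.30, and Gbp8 at 0.11. The marker means differ with diet themselves, so these fits do not separate diet from cell content.

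The other genes of the pathway were read from lists. Among receptor chains and kinases the log2 fold changes with 10% RPS were 0.09 for Ifngr1 (SE 0.08), -0.04 for Ifngr2 (SE 0.09), 0.15 for Jak1 (SE 0.07), and 0.27 for Jak2 (SE 0.09, adjusted p = 0.113 by edgeR). The transcription factor Irf1 was at 0.41 (SE 0.15, adjusted p = 0.131 by edgeR) and Ciita, the master regulator of MHC class II genes, at 1.43 (SE 0.53, adjusted p = 0.153). None of the 11 tested genes of receptor and signaling passed the threshold by edgeR, 5 were higher and 0 lower at an unadjusted p under 0.05 (9.74% and 9.75% of all tested genes), and their median was 0.17. Of 11 genes that induce IFN-γ or belong to its producers, 9 were tested and 0 passed. Without mouse 2 of the 0% group 1 gene of each of these lists passed. At an unadjusted p under 0.05, 2 of the 9 had higher estimates, Il18 (0.38, SE 0.17) and Il18r1, a chain of its receptor (0.59, SE 0.26), both at an adjusted p of 0.232 by edgeR, and 1 lower, Eomes (-0.79, SE 0.30, adjusted p = 0.155). The 2 with higher estimates are 22.2% of the 9, where 9.74% of all tested genes were higher and 9.75% lower. Stat4 had the highest estimate of this list (0.94, SE 0.53).

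Among IFN-γ target genes outside the GTPases, 31 of 33 were tested and 3 passed the threshold with 10% RPS, all 3 higher. They were Nos2, the inducible nitric oxide synthase (log2 fold change 2.48, SE 0.55, adjusted p = 0.0289), Cd274, which encodes PD-L1 (0.87, SE 0.19, adjusted p = 0.0289), and Parp14 (0.80, SE 0.18, adjusted p = 0.0326), all by edgeR. Over all tested genes 1.04% passed. At an unadjusted p under 0.05, 13 of 31 were higher and 1 was lower, Wars1 (-0.42, SE 0.13, adjusted p = 0.0803), against 9.74% higher and 9.75% lower of all tested genes, and the median of the list was 0.62. The count of 3 was 0 without mouse 3, 4, or 5 of the 0% group or mouse 1, 2, or 3 of the 10% group, 1 without mouse 5 of the 10% group, and 8 without mouse 2 of the 0% group. It was 1 with only the diets compared in the fit or with the B cell mean as a covariate, and 0 with either of the other covariates. Over the trend, Nos2 (adjusted p = 0.0333) and Cd274 (adjusted p = 0.0488) passed by edgeR.

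Of 18 partners of the GTPases in autophagy and inflammasomes, 1 passed, against 1.04% of all tested genes, and 2 were higher and 2 lower at an unadjusted p under 0.05, near the shares of all tested genes (9.74% and 9.75%). The one that passed was Casp4, which encodes the caspase that senses lipopolysaccharide and acts downstream of the GBPs (1.0, SE 0.19, adjusted p = 0.0238 by edgeR). Casp4 passed over the trend as well (adjusted p = 0.0333), and it no longer passed with 10% RPS without mouse 2 or 3 of that group, or with the smooth muscle or the macrophage covariate. The median of this list was -0.08, with Gabarapl1, an autophagy protein of the GABARAP family, the lowest (-0.24, SE 0.09, adjusted p = 0.138).

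Of the 22 other GBP, IRG, GVIN, and atlastin genes, 17 were in the table and 9 were tested, and 0 passed with any RPS diet by edgeR. With 10% RPS, 1 of the 9 was higher at an unadjusted p under 0.05, near the 9.74% of all tested genes, and it was Irgc (log2 fold change 1.98, SE 0.71, adjusted p = 0.136). Gbp9 was at 1.02 (SE 0.50), Gbp5, which builds the coat with Gbp2, at 0.14 (SE 0.20), and Gbp2b at -0.23 (SE 0.30). Counts per mouse were few for Irgc (2 to 7 with 0% RPS and 1 to 27 with 10% RPS) and for Gbp9 (3 to 11 and 3 to 27). The effector Iigp1, which the IRG members restrain, was at -0.15 (SE 0.35). Tgtp1 and Tgtp2, effectors of the same kind, had 0 counts in all mice, and Ifi47 had 65 counts in total.

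**Figure D5:**
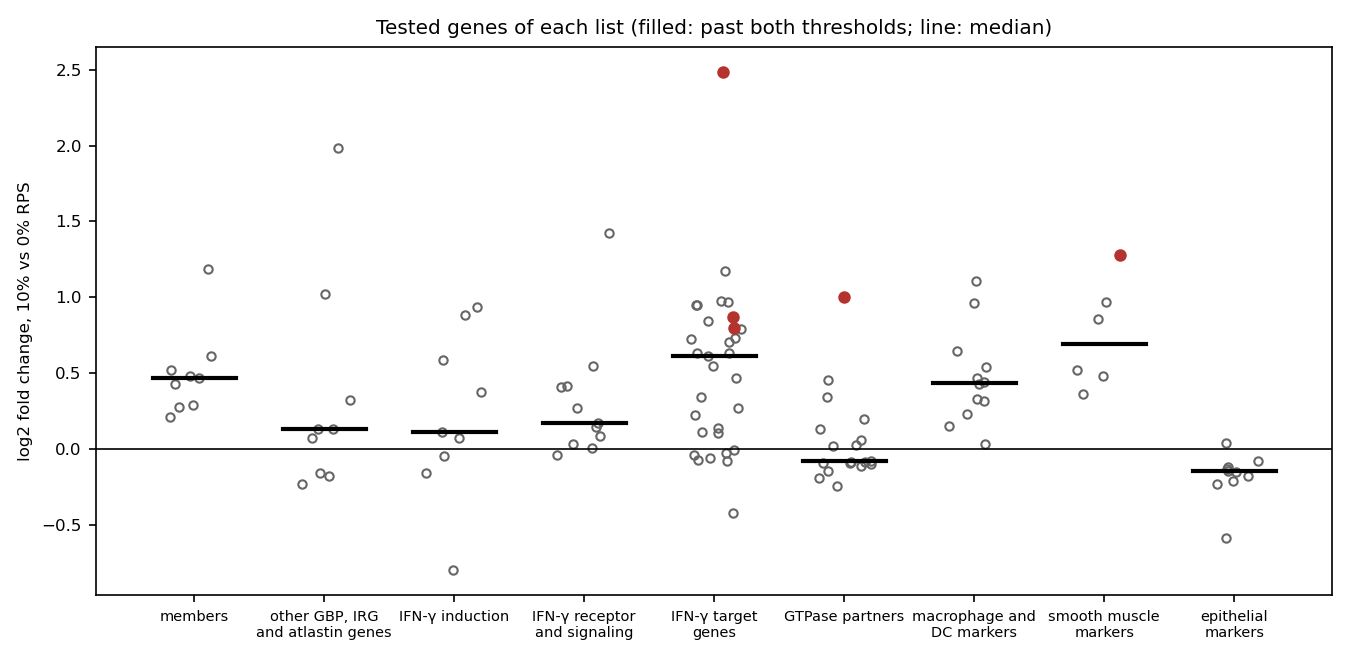
Log2 fold change (10% against 0% RPS) of every tested gene in the members and in 8 lists, with filled points for genes past both thresholds and a line at each list's median. The medians are 0.47 for the members, 0.62 for IFN-γ targets, 0.17 for receptor and signaling genes, 0.69 for smooth muscle markers, and -0.14 for epithelial markers.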

How the data were processed

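RNA from the cecum of 20 mice on 4 diets was sequenced as stranded poly(A) libraries with single-end reads. After bases of low quality and ambiguous reads were discarded, the authors mapped the rest with the CLC Genomics Workbench (mouse build GRCm39) and deposited raw read counts per gene with no normalization. The annotation, the strand setting, and the treatment of reads matching several genes are not given in the sources used here, so counts of similar genes could have been divided between copies. Diets came from the sample labels. Whether mice of a diet shared a cage or litter is not given. The p-values set differences between diets against the spread between mice, and they take the mice as independent. If cages or litters differed by diet, their effect could not be told apart from that of diet.

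The members and lists were chosen with earlier results of these data known. Symbols, coordinates, exon lengths, and windows came from GENCODE release 39 on GRCm39 (19827 of 19887 identifiers found). The count model was edgeR 4.0.16, run with limma 3.58.1 under R 4.3.3, after filterByExpr (count minimum 10, total minimum 15), with TMM scaling and a robust quasi-likelihood fit to the 4 diets. A gene passed with a p of 0.05 or less after Benjamini-Hochberg adjustment over 15348 genes, given a change of 1.5-fold or more. The trend and the test of any difference had no fold threshold. Intervals are 95% and tests two-sided. The fit was tested on simulated data. CPM were scaled by TMM, and log2 CPM used a prior count of 2. Correlations used 100000 permutations (within diets where diet means were removed) (numpy 2.4.6, scipy 1.17.1), adjusted within each family, and figures used matplotlib 3.10.9 under Python 3.11.15.

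Alternatives were DESeq2 1.42.0 (size factors, and its Wald test), no filter, at least 10 counts in every mouse, no robust step, only the diets compared, no fold threshold, ranked doses, and leaving out single mice. A planned family of correlations with 1 gene is not reported here. Marker covariates, summed copies, and marker correlations were added after the data had been seen. Named genes were the members, Ifng, its receptors and signaling genes, list genes past the threshold or with the largest or smallest estimate with 10% RPS, and the 10 genes most like the members. Other list genes given with values, such as Gbp5, Gbp9, Iigp1, Tgtp1, Tgtp2, and Ifi47, were chosen after their values were seen. Total counts of 14967798 to 42687283 per mouse gave members from Gbp8 upward at least 90 counts per mouse.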

Additional observations from a re-analysis of the deposited data

Results flagged for a closer look

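Among 36 groups of 5 mice (9 tested members on 4 diets), 2 held a mouse far from the other 4 by Dixon's test, whose 95% critical value is 0.71 for 5 samples. Chance alone flags about 1 in 20 groups. Gbp2 was 18.6 CPM in mouse 1 fed 0% RPS, and the other 4 mice of that diet lay between 8.63 and 11.2. Gbp3 was 5.40 CPM in mouse 3 fed 0% RPS, and the others lay between 7.09 and 7.55. Both mice were controls. Without the first, the log2 fold change of Gbp2 was 0.46 with 10% RPS and 0.57 with 5% RPS. Without the second, that of Gbp3 was 0.20 with 10% RPS.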

How the results depend on the processing

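No paired analysis was possible because no mouse number in the labels occurs on more than 1 diet. The count of members past the threshold was 0 under every alternative tried for 2 and 5% RPS, for 10 against 5% RPS, and for any difference among diets. For 10% RPS it was 0 to 1 with each mouse left out, and for the trend 0 to 3, and 1 with the rank of the dose. Counts over all genes were less stable. With 10% RPS, 160 genes passed as reported, 368 by DESeq2's Wald test, 285 with no fold threshold, 98 with only the diets compared, and 14 (without mouse 3 of the 10% group) to 344 (without mouse 2 of the 0% group) with each mouse left out. The B cell, macrophage and dendritic cell, and smooth muscle means as covariates left 95, 8, and 0. With 5% RPS, 30 genes passed, and 241 by DESeq2, 65 with only the diets compared, 0 (without mouse 5 of the 5% group) to 114 (without mouse 1 of the 5% group) with each mouse left out, and 67, 3, and 0 with the same covariates. With 2% RPS, 0 genes passed by edgeR (5.77% had an unadjusted p under 0.05) and 5 by DESeq2. The cause of these changes was not tested.

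Some directions turned. With the smooth muscle covariate, Gbp2 was at -0.15 with 10% and -0.13 with 5% RPS, and the slopes of Gbp2 and Gbp3 were -0.00776 and -0.00146. With the macrophage and dendritic cell covariate, Gbp4 was at -0.30 with 10% and -0.24 with 2% RPS, Gbp8 at -0.21 with 5% and -0.12 with 2%, Igtp at -0.05 with 2%, and the slope of Gbp4 was -0.0225. With the B cell covariate, Gbp4 was at -0.30 with 10% RPS and its slope was -0.0418. With each mouse left out, the ranges that crossed 0 were -0.06 to 0.46 for Gbp8 with 5% RPS and, with 2% RPS, -0.10 to 0.23 for Gbp2, -0.31 to 0.50 for Gbp4, -0.16 to 0.36 for Gbp8, and -0.22 to 0.72 for Igtp.

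Depth limits Gbp4, Igtp, and Gvin1, whose counts fell to 2, 1, and 7 in single mice, and leaves Gbp6 unmeasured. Gvin1, Gbp4, and Igtp dropped out when at least 10 counts were required in every mouse.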
